A study of Drosophila melanogaster with 6 samples.

Results

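The transcripts described here are 112 of the 15473 measured in Drosophila melanogaster ovaries, and they lie in 34 runs of neighbouring FlyBase transcript identifiers whose levels differed between upSET mutant and wild type in the same direction. They were selected on the measured values of this comparison. The rows were put in the order of their identifier numbers. A row qualified if its wild-type mean was below 13 on the log2 scale, if the means of the genotypes differed by at least 0.5 and less than 2, and if all 3 mutant values lay on one side of all 3 wild-type values. Rows in runs of 3 or more consecutive qualifying rows of the same sign were kept. The size, sign and non-overlap of the differences were therefore used to choose the members, and they are given below as a description with no test.

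Expression was measured with single-colour arrays in whole ovaries of 2-day old females. The wild type was the strain OregonG, and the mutant was the line upSETPBac{WH}CG9007e000365, which carries a piggyBac transposon in CG9007, the gene called upSET in the labels and epic in the design text. The sources used here do not spell the allele number the same way throughout. Whether the females were homozygous for the insertion is not given in them. There were 3 arrays for each genotype, and each array held the RNA of its own dissection. The mutant line and OregonG are separate strains, so the insertion and other differences between the strains cannot be told apart, and in whole ovaries fewer cells of a type and less RNA per cell cannot be told apart either.

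upSET encodes a SET-domain protein related to yeast Set3. It acts with a histone deacetylase complex that contains Rpd3 and Sin3A, and this complex is known to restrain histone acetylation and chromatin opening around the promoters of active genes. In the Drosophila genome, genes that lie next to each other are often expressed together.

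An identifier is a label and not a position. FlyBase numbers often follow the order of genes along a chromosome arm, but the coordinates of the arrayed transcripts were not used here. The order was compared with the gene table of Release 6 plus ISO1 MT, which names 44 of the 15473 transcripts. Among these 44, 7 neighbouring pairs lay within 50 rows of each other, at 3 to 28 rows apart. In all 7 pairs both genes were on the same chromosome arm, between 2 and 71 places apart in the order of protein-coding genes. Of all 43 consecutive pairs of named transcripts, at any distance, 33 were on the same arm. For pairs 3, 7 and 16 rows apart, the genes were 11, 22 and 71 places apart. For pairs 4, 12, 21 and 28 rows apart, the genes were 2, 2, 8 and 21 places apart. Few rows between identifiers therefore did not always mean few genes between them. None of the 112 run members was among the 44 named transcripts, so the members are given by their identifiers, and no gene function is stated for them. The design text counts 15473 genes, as many as there are rows, which would make each row a separate gene. This count was not checked against an annotation of the identifiers. Whether neighbours in a run share sequence that the probes could detect together was not tested.

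No nucleotide sequences of the transcripts were used. None of 32 marker genes of ovarian germ cells, follicle cells, testis, fat body, muscle and gut was paired with an identifier, so the tissue label was not checked against markers, and the level of upSET was not analysed here. Of 14 chromatin genes 4 were paired, namely kis, HDAC3, SuUR and His4r, and none of these was in a run. The wild-type means of kis, HDAC3 and SuUR, 14.87, 14.85 and 14.02, were above the limit of 13, so they could not have been. His4r, at 10.22, had a log2 change of -0.21. Arrays of 1 genotype correlated at 0.994 to 0.9965 across features, and arrays of different genotypes at 0.9804 to 0.9815. The array medians lay between 11.18 and 11.27, and precision is limited by there being 3 arrays a genotype.

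The runs comprised 14 that were higher in the mutant, with 51 transcripts, and 20 that were lower, with 61 transcripts. This split depended on the scaling of the arrays, with 34 transcripts in higher and 68 in lower runs after quantile normalization and 41 and 74 after median centring. One higher run had 5 transcripts, 7 had 4 and 6 had 3. Among the lower runs 1 had 4 transcripts and 19 had 3. Of all rows, 1036 (6.70%) qualified as higher and 984 (6.36%) as lower, so the longer runs lay mostly on the higher side while single qualifying rows were divided almost evenly. The run members made up 5.54% of the 2020 qualifying rows. The other 1908 stood alone or in pairs.

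Identifier numbers inside the runs were close. In 25 of the 34 runs the numbers were strictly consecutive, and over the 78 pairs of neighbours in runs 68 (87.2%) differed by 1, 7 by 2 and 3 by 3. Over all 15472 pairs of neighbouring rows, 81.9% differed by 1. No run spanned a larger break in the numbering.

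The number of transcripts in lower runs depended on which arrays were used. With all arrays 61 transcripts were in lower runs. There were 99 without wild-type replicate 1, 89 without mutant replicate 2 and 59 without wild-type replicate 3. The demand that groups do not overlap is easier to meet with fewer arrays, and its part in these counts was not tested. A run ends at any dim row that fails the criteria, and when rows with a mean below 7 over all arrays were barred from qualifying, 60 transcripts in 18 runs were left.

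**Figure D1:**
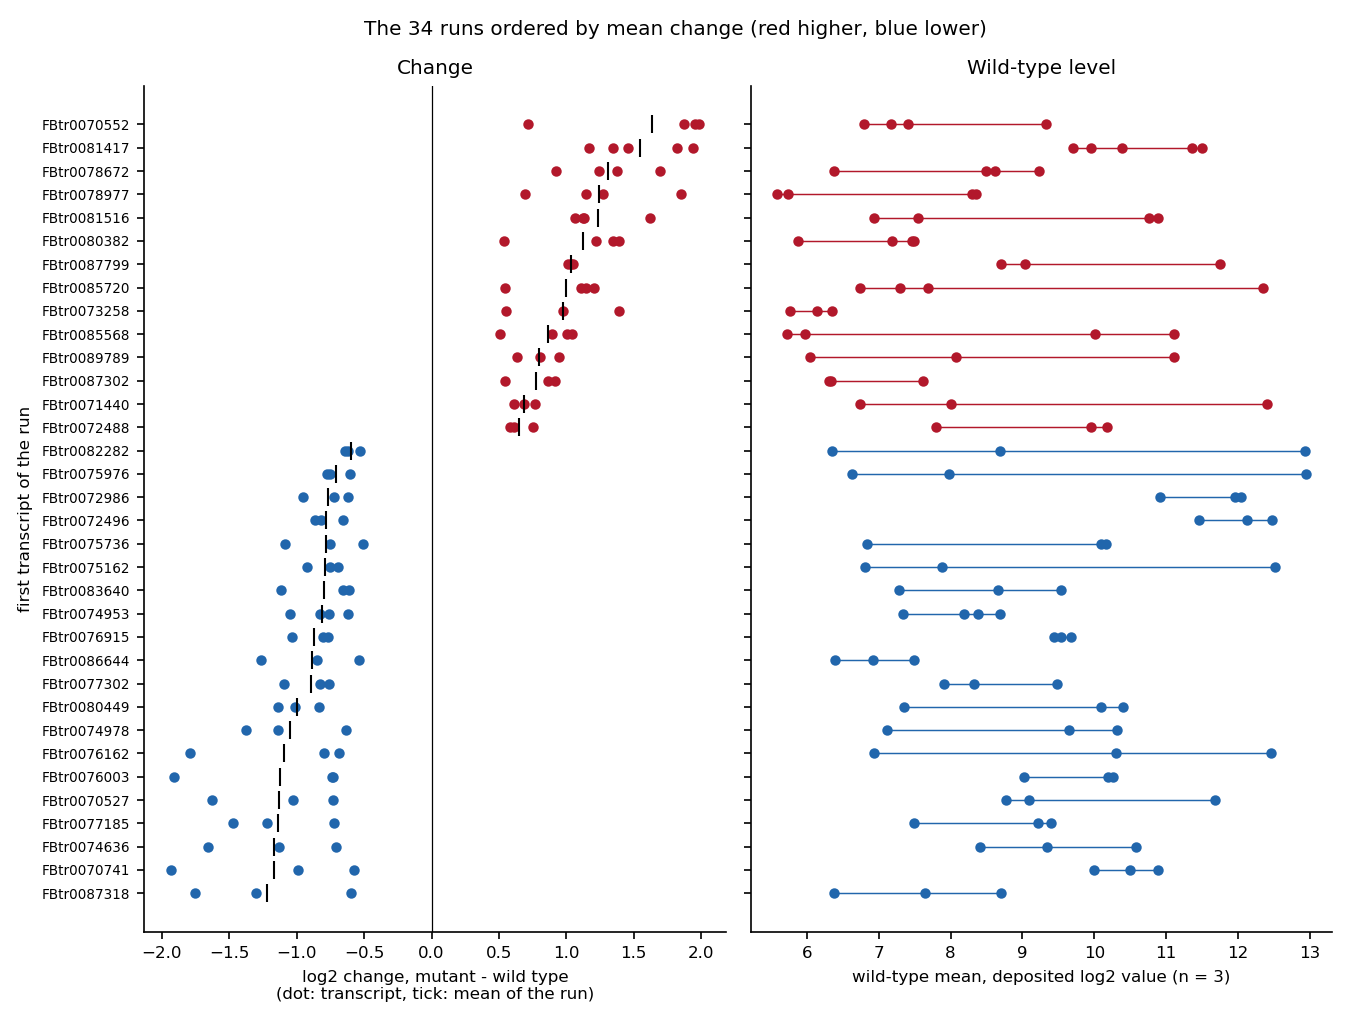
The 34 runs ordered by the mean log2 change of their members, with a dot for each transcript. The left panel gives the log2 change, mutant minus wild type, with a tick at the mean of the run, and the right panel the wild-type mean of 3 arrays on the deposited log2 scale. Higher runs reach larger mean changes than lower runs, up to 1.63 against -1.22, and members of a run often differ widely in level.

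The 51 members of higher runs had a median log2 change of 1.05, with a range from 0.51 to 1.99, and the 61 members of lower runs had a median of -0.81, with a range from -1.93 to -0.51. The median change of all features was -0.03. The members resembled the other qualifying rows in size of change. Both sets passed the same limits on change, level and overlap of the groups, so likeness between them is partly set by the rule. The 985 higher qualifying rows outside runs had a median of 0.95 and the 923 lower ones -0.80. Levels were alike too, with a median wild-type level of 7.80 in higher runs against 7.90 in the other higher rows, and of 9.34 in lower runs against 9.34 in the other lower rows. Replicate spread was of the same order, and the median SD of wild-type and mutant values was 0.19 and 0.25 for members of higher runs and 0.24 and 0.22 for members of lower runs.

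Of the 51 members of higher runs, 41 had a limma adjusted p under 0.05, beside 8.05% of all features called as higher. Of the 61 members of lower runs, 49 did, beside 7.30% of all features called as lower. These counts follow from the way the members were chosen, and nothing is read from them.

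Some members lay low on the scale, as did many rows of the whole table, where 4735 of 15473 had a wild-type mean below 7. In the wild type 24 of the 112 members had a mean below 7, 16 (31.37%) in higher runs and 8 (13.11%) in lower runs. Among qualifying rows outside runs the shares were 36.14% and 14.41%. In both genotypes 15 members were below 7. In the higher runs 9 transcripts were below 7 in the wild type and above it in the mutant. In the lower runs 8 were above 7 in the wild type and below it in the mutant. Detection calls were not used here, so values this low have no known relation to background. The run FBtr0073258 to FBtr0073260 was the one run with all wild-type means below 7.

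The longest run began at FBtr0081417, and its members lay between 9.70 and 11.50 in the wild type. FBtr0081417 was at 11.14, 11.48 and 11.44 on the wild-type arrays and at 13.07, 13.07 and 13.38 on the mutant arrays, a log2 change of 1.82 (SE 0.15). FBtr0081418 was at 9.92, 9.97 and 9.99 on the wild-type arrays and at 11.11, 10.86 and 11.41 on the mutant arrays, a log2 change of 1.17 (SE 0.16). FBtr0081419 was at 11.38, 11.51 and 11.62 on the wild-type arrays and at 13.34, 13.35 and 13.63 on the mutant arrays, a log2 change of 1.94 (SE 0.14). In these transcripts every mutant value stood at least a full log2 unit above the wild-type mean of the same transcript, except for 1 array of FBtr0081418. FBtr0081420 was at 9.44, 9.79 and 9.87 on the wild-type arrays and at 11.14, 10.75 and 11.26 on the mutant arrays, a log2 change of 1.35 (SE 0.18). FBtr0081421 was at 10.54, 10.16 and 10.46 on the wild-type arrays and at 11.86, 11.51 and 12.15 on the mutant arrays, a log2 change of 1.45 (SE 0.19). The mutant arrays were above the wild-type arrays in all 5 transcripts with no overlap, and mutant replicate 3 was the highest mutant array in each of the 5.

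This run continued past the limit on the size of the change. FBtr0081422 was at 11.73, 12.20 and 12.45 on the wild-type arrays and at 14.09, 14.35 and 14.31 on the mutant arrays, a log2 change of 2.12 (SE 0.19). FBtr0081423 was at 10.73, 11.35 and 11.10 on the wild-type arrays and at 12.30, 12.22 and 12.47 on the mutant arrays, a log2 change of 1.27 (SE 0.17). FBtr0081424 was at 7.50, 7.21 and 7.35 on the wild-type arrays and at 8.08, 7.95 and 8.05 on the mutant arrays, a log2 change of 0.67 (SE 0.12). FBtr0081422 was left out of the runs by its change of more than 2, and the 2 rows behind it were too few to form a run of their own. With no upper limit the block held 8 consecutive identifiers, FBtr0081417 to FBtr0081424, the largest block of the table under that setting. The rows next to it had little change, but both lay near the bottom of the scale in both genotypes. The row before the block, FBtr0081416, had a log2 change of 0.06 at a wild-type level of 5.83, and the row after it, FBtr0081425, had -0.04 at 5.65. The row behind that, FBtr0081426, had -0.07 at a wild-type level of 10.40. FBtr0081415 and FBtr0081414, at wild-type levels of 14.66 and 13.98, had changes of -0.10 and -0.18.

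**Figure D2:**
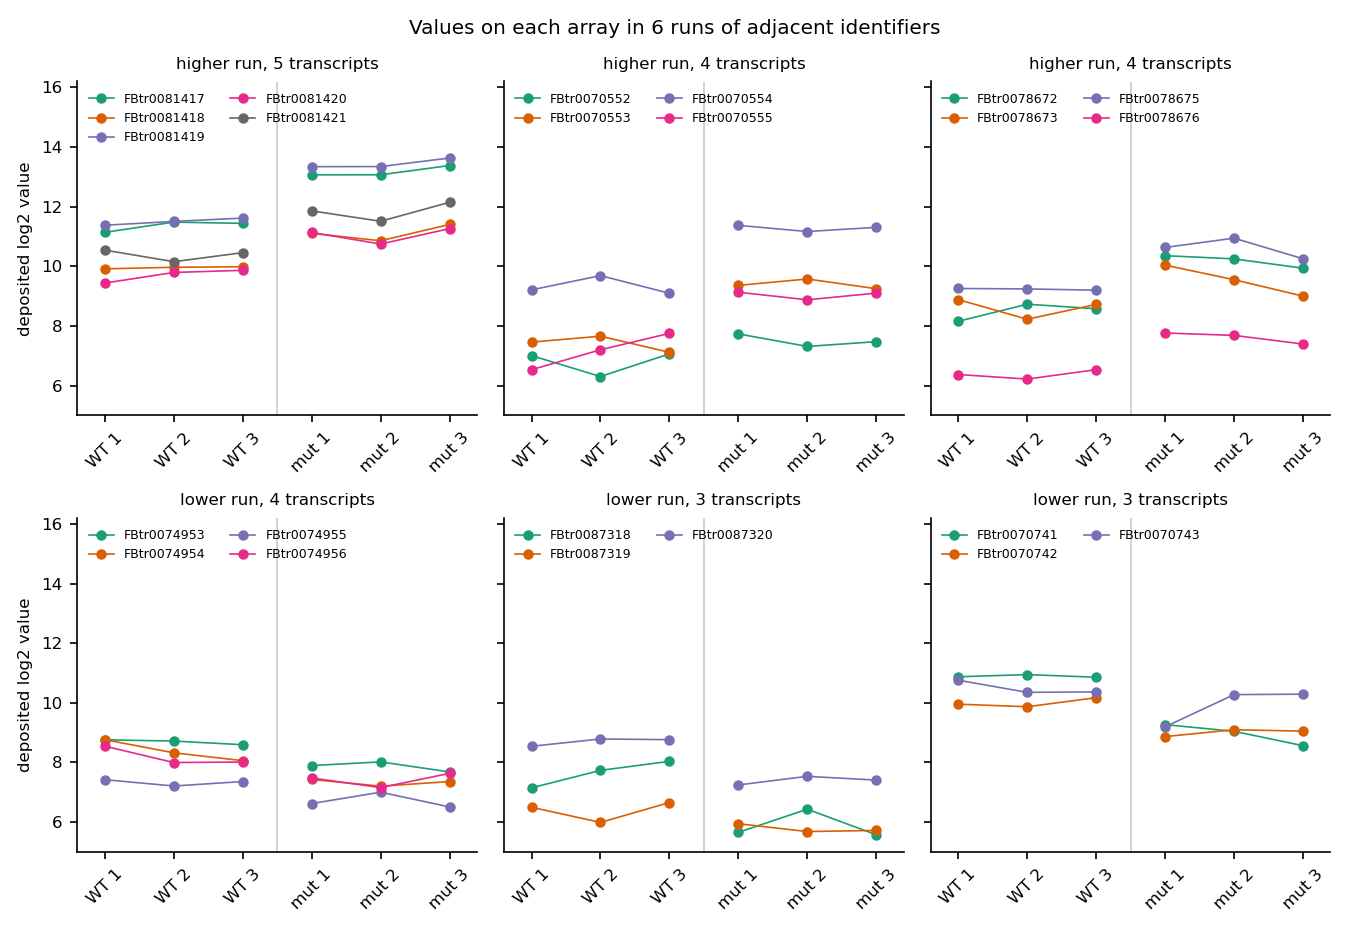
Deposited log2 values on each of the 6 arrays for the transcripts of 6 runs, the longest 3 in each direction with ties ordered by mean change. Lines join the 3 arrays of a genotype for 1 transcript and WT and mut stand for wild type and mutant. The mutant values of each transcript lie wholly above its wild-type values in the top row and wholly below them in the bottom row, while the levels of transcripts within a run differ.

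The run with the largest mean change, 1.63, began at FBtr0070552. FBtr0070552 was at 7.01, 6.31 and 7.07 on the wild-type arrays and at 7.73, 7.31 and 7.47 on the mutant arrays, a log2 change of 0.72 (SE 0.22). This first member showed the smallest difference of the run, and its lowest mutant value stood close above its highest wild-type value. Without wild-type replicate 2, the lowest wild-type array, its log2 change was 0.47. FBtr0070553 was at 7.46, 7.66 and 7.12 on the wild-type arrays and at 9.36, 9.58 and 9.25 on the mutant arrays, a log2 change of 1.99 (SE 0.17). FBtr0070554 was at 9.21, 9.69 and 9.10 on the wild-type arrays and at 11.38, 11.17 and 11.31 on the mutant arrays, a log2 change of 1.95 (SE 0.17). FBtr0070555 was at 6.53, 7.20 and 7.75 on the wild-type arrays and at 9.13, 8.88 and 9.10 on the mutant arrays, a log2 change of 1.88 (SE 0.28). The last 3 members had almost equal changes, all close below the upper limit of 2, and their wild-type levels differed by more than 2 log2 units. More rows with higher mutant levels lay nearby, and of the 8 rows on each side of the run 5 of 16 were higher by at least 0.5 and none was lower by that much. Among these were FBtr0070559 at 1.88, FBtr0070562 at 2.53 and FBtr0070563 at 1.57, all parted from the run by rows with changes under 0.5.

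The run that began at FBtr0078672 held 4 transcripts over 5 identifier numbers. FBtr0078672 was at 8.16, 8.73 and 8.58 on the wild-type arrays and at 10.36, 10.25 and 9.94 on the mutant arrays, a log2 change of 1.69 (SE 0.18). FBtr0078673 was at 8.89, 8.23 and 8.72 on the wild-type arrays and at 10.04, 9.55 and 9.003 on the mutant arrays, a log2 change of 0.92 (SE 0.28). The second of these had the widest mutant spread of the run, and its lowest mutant array was just above its highest wild-type array. FBtr0078675 was at 9.26, 9.24 and 9.20 on the wild-type arrays and at 10.63, 10.95 and 10.26 on the mutant arrays, a log2 change of 1.38 (SE 0.18). FBtr0078676 was at 6.37, 6.22 and 6.54 on the wild-type arrays and at 7.76, 7.68 and 7.40 on the mutant arrays, a log2 change of 1.24 (SE 0.15). In all 4 transcripts mutant replicate 3 was the lowest mutant array. The rows on both sides, at wild-type levels of 14.06 and 14.25, had changes of 0.34 and 0.04 with overlapping groups.

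The longest lower run began at FBtr0074953, and its 4 members lay within 1.36 log2 units of each other in the wild type. FBtr0074953 was at 8.76, 8.72 and 8.60 on the wild-type arrays and at 7.90, 8.02 and 7.68 on the mutant arrays, a log2 change of -0.83 (SE 0.13). FBtr0074954 was at 8.76, 8.32 and 8.06 on the wild-type arrays and at 7.43, 7.21 and 7.36 on the mutant arrays, a log2 change of -1.05 (SE 0.19). Each mutant value of these transcripts was below each wild-type value. FBtr0074955 was at 7.42, 7.21 and 7.36 on the wild-type arrays and at 6.62, 7.004 and 6.51 on the mutant arrays, a log2 change of -0.62 (SE 0.16). FBtr0074956 was at 8.55, 7.999 and 8.01 on the wild-type arrays and at 7.48, 7.16 and 7.64 on the mutant arrays, a log2 change of -0.76 (SE 0.19). Wild-type replicate 1 was the highest wild-type array in all 4 transcripts. Under limma FBtr0074955 and FBtr0074956 were close to the threshold, and their adjusted p was above 0.05 in 6 and 5 of 9 alternatives, among them 5 of the 6 that left out 1 array in each case. FBtr0074950, which stands ahead of the run behind 1 row with little change, was also lower, at -1.33, while the row after the run, FBtr0074960, had a change of 0.06.

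The lower run with the largest mean change, -1.22, began at FBtr0087318 and reached the bottom of the scale. FBtr0087318 was at 7.15, 7.74 and 8.04 on the wild-type arrays and at 5.66, 6.43 and 5.58 on the mutant arrays, a log2 change of -1.75 (SE 0.29). FBtr0087319 was at 6.499, 5.99 and 6.66 on the wild-type arrays and at 5.95, 5.68 and 5.72 on the mutant arrays, a log2 change of -0.60 (SE 0.19). FBtr0087320 was at 8.54, 8.79 and 8.77 on the wild-type arrays and at 7.25, 7.54 and 7.41 on the mutant arrays, a log2 change of -1.30 (SE 0.13). The middle transcript was dim in both genotypes, whereas its neighbours had clearly separated groups. The changes of the rows next to this run were 0.04 for FBtr0087315 and 0.03 for FBtr0087322.

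The run that began at FBtr0070741 followed with a mean change of -1.17 and had uneven members. FBtr0070741 was at 10.88, 10.95 and 10.86 on the wild-type arrays and at 9.27, 9.05 and 8.56 on the mutant arrays, a log2 change of -1.93 (SE 0.18). FBtr0070742 was at 9.96, 9.87 and 10.17 on the wild-type arrays and at 8.87, 9.10 and 9.05 on the mutant arrays, a log2 change of -0.99 (SE 0.13). FBtr0070743 was at 10.76, 10.35 and 10.37 on the wild-type arrays and at 9.19, 10.28 and 10.29 on the mutant arrays, a log2 change of -0.57 (SE 0.29). In the last transcript 2 mutant arrays stood next to the wild-type arrays and only mutant replicate 1 was well below them. Without mutant replicate 1 its log2 change was -0.21. The row after the run, FBtr0070744, had a smaller change in the same direction, -0.27, with groups that did not overlap.

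**Figure D3:**
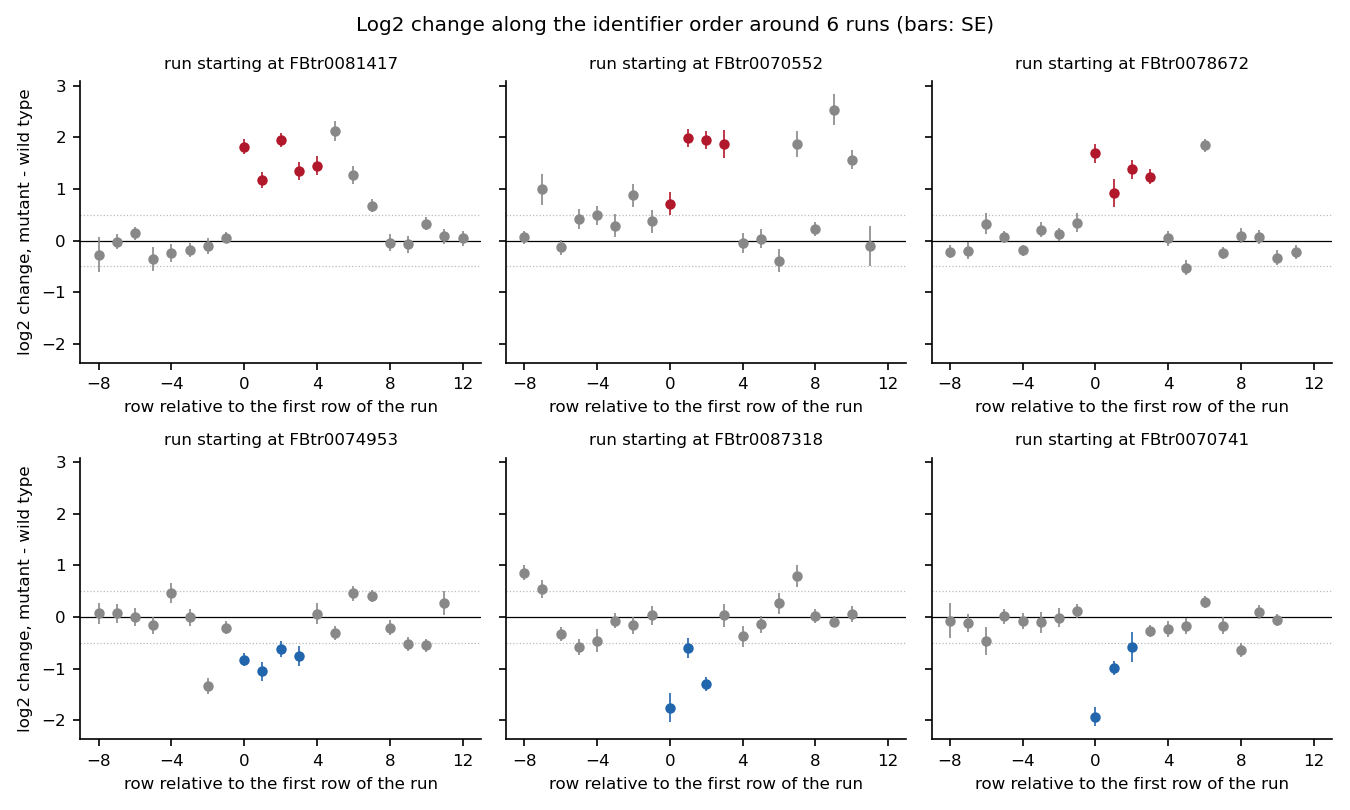
Log2 change, mutant minus wild type, of the members of 6 runs and of the 8 rows on each side in identifier order. Coloured points are members, grey points are other rows, bars are the moderated standard error and dotted lines mark changes of 0.5 in either direction. The block at FBtr0081417 goes on for 3 more rows at 2.12, 1.27 and 0.67, while the rows just after the other 5 runs have changes under 0.5.

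The other runs are given by the means of 3 arrays. Over all 112 members the SD of the 3 values ranged from 0.029 to 0.86 in the wild type and from 0.032 to 0.90 in the mutant. The other higher runs of 4 joined transcripts at different levels. FBtr0078977, FBtr0078978, FBtr0078979 and FBtr0078980 were at 5.58, 8.30, 5.73 and 8.35 in the wild type and at 6.28, 9.57, 7.59 and 9.50 in the mutant. FBtr0080382, FBtr0080383, FBtr0080384 and FBtr0080387 were at 7.19, 5.87, 7.46 and 7.49 in the wild type and at 8.41, 6.41, 8.85 and 8.84 in the mutant. FBtr0081516, FBtr0081517, FBtr0081518 and FBtr0081519 were at 7.55, 6.94, 10.89 and 10.76 in the wild type and at 9.17, 8.07, 11.95 and 11.88 in the mutant. In each of these 3 runs dim and brighter transcripts shared a direction, with changes of 0.70, 1.27, 1.85 and 1.15, of 1.22, 0.54, 1.39 and 1.35, and of 1.62, 1.13, 1.07 and 1.13. FBtr0085568, FBtr0085569, FBtr0085570 and FBtr0085571 were at 5.72, 5.97, 11.11 and 10.01 in the wild type and at 6.76, 6.97, 11.62 and 10.90 in the mutant. FBtr0085720, FBtr0085721, FBtr0085722 and FBtr0085723 were at 12.35, 7.69, 7.29 and 6.74 in the wild type and at 12.90, 8.89, 8.40 and 7.89 in the mutant. In the last of these the brightest transcript had the smallest change, 0.55, and the 3 dimmer ones had 1.20, 1.11 and 1.15.

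Among the higher runs of 3, that at FBtr0087799 had members with near-equal mean changes, 1.05, 1.03 and 1.01, but wide replicate spread. FBtr0087799 was at 11.06, 12.09 and 12.11 on the wild-type arrays and at 13.32, 12.54 and 12.54 on the mutant arrays, a log2 change of 1.05 (SE 0.32). FBtr0087800 was at 8.05, 9.58 and 9.47 on the wild-type arrays and at 10.36, 10.04 and 9.80 on the mutant arrays, a log2 change of 1.03 (SE 0.38). FBtr0087801 was at 8.86, 8.72 and 8.51 on the wild-type arrays and at 10.72, 9.41 and 8.9997 on the mutant arrays, a log2 change of 1.01 (SE 0.39). Wild-type replicate 1 was well below the other wild-type arrays in the first 2, and mutant replicate 1 was the highest mutant array in all 3. The gap between the nearest wild-type and mutant values was under 0.5 in all 3 transcripts. None of the 3 passed an adjusted p of 0.05. Without wild-type replicate 1 the log2 change was 0.70 for FBtr0087799 and 0.54 for FBtr0087800, and without mutant replicate 1 it was 0.51 for FBtr0087801.

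The remaining higher runs of 3 had mean changes below 1. FBtr0073258, FBtr0073259 and FBtr0073260 were at 6.35, 6.14 and 5.75 in the wild type and at 7.74, 6.70 and 6.73 in the mutant. FBtr0087302, FBtr0087304 and FBtr0087305 were at 6.30, 6.34 and 7.62 in the wild type and at 7.21, 7.20 and 8.16 in the mutant. In these 2 runs all members but FBtr0087305 lay near the bottom of the scale in the wild type. FBtr0089789, FBtr0089790 and FBtr0089791 were at 6.04, 8.07 and 11.11 in the wild type and at 6.99, 8.88 and 11.74 in the mutant. FBtr0071440, FBtr0071441 and FBtr0071442 were at 7.998, 12.41 and 6.74 in the wild type and at 8.76, 13.02 and 7.43 in the mutant. FBtr0072488, FBtr0072490 and FBtr0072492 were at 9.95, 10.18 and 7.80 in the wild type and at 10.56, 10.77 and 8.55 in the mutant. The runs at FBtr0089789 and FBtr0071440 each joined a bright, a middling and a dim transcript, with wild-type means 5.06 and 5.67 log2 units apart. The run at FBtr0072488 had the smallest mean change of the higher runs, 0.65.

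Among the lower runs of 3, several had members at like levels. FBtr0076915, FBtr0076916 and FBtr0076917 were at 9.53, 9.44 and 9.67 in the wild type and at 8.76, 8.63 and 8.64 in the mutant. These 3 transcripts lay within 0.23 log2 units in the wild type, the narrowest range of any run, and the range across all runs had a median of 2.46 and reached 6.60. FBtr0072986, FBtr0072988 and FBtr0072989 were at 12.05, 11.96 and 10.91 in the wild type and at 11.33, 11.34 and 9.96 in the mutant. FBtr0072496, FBtr0072497 and FBtr0072498 were at 12.13, 11.45 and 12.47 in the wild type and at 11.27, 10.64 and 11.81 in the mutant. FBtr0076003, FBtr0076004 and FBtr0076005 were at 10.26, 10.19 and 9.02 in the wild type and at 9.53, 9.45 and 7.11 in the mutant. The runs at FBtr0072986 and FBtr0072496 were bright throughout, with 10.91 as the lowest wild-type mean, and their mean changes were -0.77 and -0.78. In the run at FBtr0076003 the last transcript had a change of -1.91 and the other 2 had -0.74 and -0.73.

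Other lower runs lay in the middle of the scale. FBtr0077185, FBtr0077186 and FBtr0077187 were at 9.22, 9.40 and 7.49 in the wild type and at 7.75, 8.18 and 6.76 in the mutant. FBtr0077302, FBtr0077303 and FBtr0077304 were at 8.33, 7.90 and 9.48 in the wild type and at 7.57, 6.804 and 8.65 in the mutant. FBtr0074636, FBtr0074637 and FBtr0074638 were at 9.34, 8.41 and 10.58 in the wild type and at 7.68, 7.70 and 9.45 in the mutant. In the runs at FBtr0077185 and FBtr0074636 the members differed in size of change, from -1.47 to -0.72 and from -1.66 to -0.71. FBtr0083640, FBtr0083641 and FBtr0083642 were at 7.28, 8.66 and 9.54 in the wild type and at 6.66, 7.54 and 8.88 in the mutant. FBtr0074978, FBtr0074979 and FBtr0074980 were at 7.12, 9.64 and 10.32 in the wild type and at 5.98, 8.27 and 9.69 in the mutant. FBtr0080449, FBtr0080450 and FBtr0080452 were at 10.41, 7.35 and 10.10 in the wild type and at 9.57, 6.21 and 9.08 in the mutant. The middle transcript of the last run, FBtr0080450, had the widest wild-type spread of the lower members, with wild-type replicate 2 close to the mutant values.

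A further set of lower runs joined transcripts at very different levels. FBtr0082282, FBtr0082283 and FBtr0082285 were at 8.69, 6.34 and 12.94 in the wild type and at 8.05, 5.81 and 12.32 in the mutant. FBtr0075976, FBtr0075977 and FBtr0075978 were at 12.94, 7.98 and 6.62 in the wild type and at 12.34, 7.22 and 5.85 in the mutant. FBtr0075162, FBtr0075163 and FBtr0075164 were at 12.51, 7.88 and 6.81 in the wild type and at 11.59, 7.18 and 6.05 in the mutant. In these 3 runs the wild-type means spanned 5.71 to 6.60 log2 units. The changes within a run were alike, at -0.64, -0.53 and -0.62, at -0.61, -0.75 and -0.77, and at -0.92, -0.70 and -0.75. The rule barred changes smaller than 0.5, which limits how far they could differ. FBtr0076162, FBtr0076163 and FBtr0076164 were at 6.94, 12.46 and 10.31 in the wild type and at 6.25, 11.66 and 8.51 in the mutant. FBtr0075736, FBtr0075737 and FBtr0075740 were at 10.17, 10.10 and 6.84 in the wild type and at 9.08, 9.34 and 6.33 in the mutant. FBtr0070527, FBtr0070530 and FBtr0070531 were at 11.68, 9.09 and 8.77 in the wild type and at 10.95, 7.46 and 7.74 in the mutant. The wild-type means in these 3 runs spanned 2.92 to 5.52 log2 units. The changes were less even, and the largest were -1.79 for FBtr0076164, -1.09 for FBtr0075736 and -1.63 for FBtr0070530.

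The last lower run, at FBtr0086644, lay near the bottom of the scale. FBtr0086644, FBtr0086645 and FBtr0086646 were at 6.38, 6.92 and 7.49 in the wild type and at 5.85, 6.07 and 6.23 in the mutant. The row in front of it, FBtr0086643, had a much larger change in the same direction. FBtr0086643 was at 9.26, 9.61 and 9.70 on the wild-type arrays and at 6.32, 5.81 and 7.28 on the mutant arrays, a log2 change of -3.06 (SE 0.34). It was left out by the upper limit on the change, so this block holds 4 adjacent lower rows when the limit is dropped. The nearest named transcript, shared by Gint3 and CG42306, stood 5 rows after this run and had a log2 change of 0.21 (SE 0.11).

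Rows just outside the runs were mostly unlike the members. Of the 68 flanking rows, 48 had a change under 0.5, 36 had overlapping groups and 25 had a wild-type mean at or above 13, and a row could meet several of these. The sign was the same as that of the run in 31 of the 68 and opposite in 37. In 12 flanking rows all criteria were met in the opposite direction, so that a run ended at a row whose groups differed the other way. The median change was 0.045 next to higher runs and 0.05 next to lower runs. These values belong to the contrast that chose the members, since a row of the same sign that met the criteria would have been part of the run.

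Some runs lay close to each other. In 5 cases the next run began within 20 rows, and in 3 of these the directions were opposite. The higher run ending at FBtr0072492 and the lower run beginning at FBtr0072496 were 3 rows apart, and the higher run ending at FBtr0087305 and the lower run beginning at FBtr0087318 were 7 rows apart. The lower run ending at FBtr0070531 and the higher run beginning at FBtr0070552 were 19 rows apart. The lower runs at FBtr0074953 and FBtr0074978 were 16 rows apart and those at FBtr0075976 and FBtr0076003 were 19 rows apart. A transcript paired with CG42374 and with Mettl5, which encodes a methyltransferase of ribosomal RNA, stood 11 rows from the run at FBtr0074978, in which all 3 transcripts were lower, and had a log2 change of -0.58 (SE 0.14). The transcript shared by Rpp14a and CG7950 stood 4 rows from the higher run at FBtr0085568 and had a log2 change of 0.07 (SE 0.17).

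Members near the thresholds show where the selection ended. The smallest changes inside were -0.51 for FBtr0075740 and 0.51 for FBtr0085570, and the largest was 1.99 for FBtr0070553. The wild-type means closest to the limit of 13 were 12.94 for FBtr0075976 and 12.94 for FBtr0082285. Just outside, FBtr0083697 with a change of -0.48 and FBtr0076970 with a change of -2.002 would each have completed a run of 3. FBtr0080861, with a wild-type mean of 13.68, would have completed a run of 5. Rows that failed a single criterion and would have made or lengthened a run did so in 29 cases through a change under 0.5, in 14 through overlapping groups, in 10 through a change of 2 or more and in 10 through the wild-type level.

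Neighbouring rows were also compared over the whole table. After a row that qualified as higher, the next row qualified as higher in 12.2% of 1036 cases, where 6.70% of all rows did, and it qualified as lower in 4.83%. After a lower row the next was lower in 13.01% of 984 cases, where 6.36% of all rows were, and higher in 6.2%. Where 2 neighbouring rows both qualified, they had the same sign in 254 of 365 pairs (69.6%). At 2 rows apart the same sign was found in 56.2% of pairs that both qualified, at 5 rows apart in 51.8% and at 50 rows apart in 52.2%. Members of the runs are included in these shares, which come from the contrast that chose them and are given as a description. The shares of all rows also count rows with a wild-type mean of 13 or more, which could not qualify.

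Rows in the middle of the scale qualified more often than rows overall. Of 4655 rows with a wild-type mean from 7 to 13, 14.3% qualified as higher and 18.1% as lower. When only such rows were looked at as the next row, 22.6% of those after a higher row were higher, and 31.0% of those after a lower row were lower. At 5 rows apart these shares were 14.4% and 19.9%, and at 20 rows apart they were 11.4% and 22.3%. The shares at 1 row count the neighbouring pairs of the runs, which were selected for sharing a sign, so no conclusion is drawn from them.

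**Figure D4:**
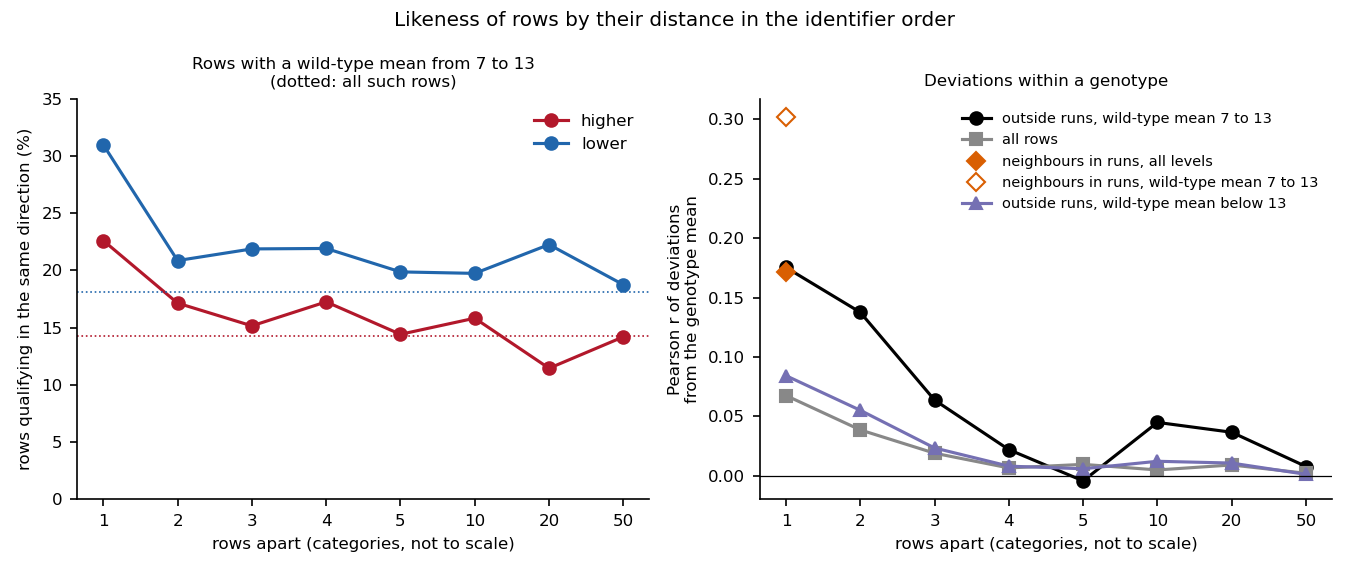
Likeness of rows by their distance in identifier order. The left panel gives the percentage of rows with a wild-type mean from 7 to 13 that qualified in the same direction as the row a given distance before, with dotted lines at the share over all such rows, and the right panel gives Pearson's r of deviations from the genotype mean. At 1 row the shares, which include the pairs selected as runs, are 22.6% and 31.0%. At wild-type means from 7 to 13, r at 1 row is 0.30 in runs and 0.18 outside them, and r is 0.17 in runs at all their levels against 0.08 outside runs below 13.

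Deviations of single arrays from their genotype's mean were not themselves a criterion, although the demand that groups do not overlap limits how large they can be. Over the 78 neighbouring pairs in runs and the 6 arrays, the deviations of neighbours had a Pearson's r of 0.17, with 0.24 in the 37 pairs of higher runs and 0.10 in the 41 pairs of lower runs. On single arrays r ranged from -0.02 on wild-type replicate 3 to 0.31 on mutant replicate 3. For neighbouring rows outside runs with a wild-type mean from 7 to 13, r was 0.18 over 1586 pairs, and for the 50 run pairs with both rows at such a level it was 0.30. For the 6383 pairs outside runs with wild-type means below 13, the range open to all members, r was 0.08. The differences between values in runs and outside them were not tested. Outside runs at wild-type means from 7 to 13, r was 0.14 at 2 rows apart, 0.06 at 3 and -0.0042 at 5. Both rows of a pair come from the same arrays, and pairs are not independent replicates.

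Wild-type levels of neighbours in runs correlated with a Pearson's r of 0.29 over 78 pairs, where all 15472 neighbouring pairs of the table gave 0.35. Restricted to wild-type means below 13 outside runs, r was 0.33 over 6383 pairs. At wild-type means from 7 to 13, r was 0.20 over the 50 run pairs and 0.18 over 1586 pairs outside runs. These differences in r were not tested. In 17 of the 34 runs some members were below 7 in the wild type and others above.

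Shared array order was seen in few runs. The same mutant array was the highest in all members of 4 runs, and the same mutant array was the lowest in all members of 3 runs. In the wild type the same array was the highest in all members of 4 runs and the lowest in 2. The shared highest mutant array was replicate 1 in 1 run, replicate 2 in another and replicate 3 in the other two. Medians over the 51 higher members were 7.98, 7.83 and 7.83 on the wild-type arrays and 9.13, 9.26 and 8.99 on the mutant arrays. Over the 61 lower members they were 9.29, 9.36 and 9.17 in the wild type and 8.42, 7.99 and 7.93 in the mutant. The median deviation of the lower members from their own mutant mean was -0.02 on mutant replicate 1, 0.07 on mutant replicate 2 and -0.03 on mutant replicate 3.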

How the data were processed

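Total RNA from 6 ovary samples, with Cy3 as the label, was measured on NimbleGen arrays with 4 probes of 60 bases for each gene, per the labels' protocols and the design text. NimbleScan 2.4 extracted the images, per the labels' protocols, and RMA is named in the submitters' processing notes. The deposited values are log2 expression values, a base taken from their range of 5.30 to 15.99, with 1 value per transcript and array. RMA as a method corrects background, normalizes arrays to a shared distribution and summarises probes, which can shrink differences of dim transcripts. The sources used here give no RMA settings, genome build, annotation or batch.

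Rows were ordered by identifier number and runs were found as described at the start of the results. The members and lists were chosen with earlier results of these data known. For the test, lmFit and eBayes of limma 3.58.1 (R 4.3.3) were run on the whole table of 15473 features with no filter, and two-sided p-values were adjusted by Benjamini-Hochberg over all features, with a threshold of 0.05. Changes are mutant minus wild type with the moderated standard error (SE). The fit and the search for runs were tested on simulated data. Transcripts with values on every array are those of the longest 3 runs in each direction (ties by mean change) and of the run with the largest mean change, with further runs named after their values were seen. Gene lists were the 5 marker lists and the chromatin list named in the results. Alternatives were other scalings, thresholds, variance models, a replicate block and leaving out each array. Dissections were the replicates, and replicate numbers were not taken to pair samples.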

Additional observations from a re-analysis of the deposited data

How the results depend on the processing

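The 112 transcripts in 34 runs became 102 in 31 with quantile normalization (34 higher and 68 lower), of which 89 were among the 112, and 115 in 35 with median centring (41 higher and 74 lower), of which 102 were. A minimum change of 0.6 gave 33 transcripts in higher runs, and no upper limit gave 94. With a mean over all arrays of at least 7 there were 60 transcripts in 18 runs, 29 higher and 31 lower. With runs of at least 4 there were 37 in 9 runs, 33 higher and 4 lower, and with groups allowed to overlap 175 in 53 runs, 80 higher and 95 lower. These follow from the wider or narrower criteria. Without each array, transcripts in lower runs ranged from 59 to 99, the latter without wild-type replicate 1; the cause was not tested. Between 87 and 102 of the 112 were found again without any 1 array. Numbers at most 5 apart changed no run, and could not have, since the largest gap inside a run was 3. The correlation of deviations of run neighbours ranged from 0.127 to 0.209 without each array. Of the 112 members, 90 were called, and 51 at an adjusted p of 0.01 (1240 over the whole table, where 2376 were at 0.05). Without each array 67 to 78 members were called, beside 1692 to 2178 features over the whole table. The deviations of arrays with the same replicate number had correlations of -0.036, -0.058 and -0.026, which gave no sign of pairing, and with the replicate block 77 members and 1939 features were called. For 26 transcripts, those of the longest 3 runs in each direction and of the run at FBtr0087799, the direction held in all 234 alternative values, and so did the side of the threshold in 220. Leaving out 1 array could not reverse a direction, since the groups of these transcripts were chosen not to overlap. The replicate block leaves the change itself as it is. Only the other scalings could have turned a direction. The 11 values that missed a threshold passed before belonged to FBtr0074955 (6, the replicate block among them) and FBtr0074956 (5), and 3 passed one missed before. Signal over background may limit the dimmest members and was not measured.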

Other observations

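Adjacent identifiers also shared larger changes, outside the limits that defined the runs. These were looked at after the values were seen. With no upper limit on the change, 50 runs of 3 or more were found, 27 higher and 23 lower, and 18 of them held a change of at least 2. The added transcripts numbered 43 on the higher side and 10 on the lower side. The shares of all features with changes of at least 2 in each direction are not given here, so nothing is read from this split. In 3 runs, all higher, every transcript changed by at least 2. FBtr0087557 was at 6.17, 5.84 and 5.69 on the wild-type arrays and at 11.79, 11.72 and 11.68 on the mutant arrays, a log2 change of 5.83 (SE 0.15). FBtr0087558 was at 6.12, 6.28 and 6.57 on the wild-type arrays and at 11.99, 12.05 and 11.73 on the mutant arrays, a log2 change of 5.60 (SE 0.16). FBtr0087559 was at 9.09, 9.99 and 10.11 on the wild-type arrays and at 12.55, 12.99 and 12.55 on the mutant arrays, a log2 change of 2.97 (SE 0.27). FBtr0087560 was at 9.63, 10.69 and 10.64 on the wild-type arrays and at 12.85, 12.99 and 12.74 on the mutant arrays, a log2 change of 2.54 (SE 0.27). Within this block of 4 consecutive identifiers 2 transcripts were at the bottom of the scale in the wild type and the other two were not, while the mutant means of all 4 lay between 11.73 and 12.86.

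The other two such runs were FBtr0072047 to FBtr0072049, with changes from 3.19 to 5.01, and FBtr0070532 to FBtr0070535, with changes from 2.39 to 3.08. The latter followed directly on the lower run FBtr0070527 to FBtr0070531. FBtr0070531 was at 8.27, 8.94 and 9.09 on the wild-type arrays and at 7.20, 7.89 and 8.13 on the mutant arrays, a log2 change of -1.03 (SE 0.29). FBtr0070532 was at 6.27, 6.26 and 6.51 on the wild-type arrays and at 9.17, 9.39 and 8.86 on the mutant arrays, a log2 change of 2.79 (SE 0.16). Between these neighbouring rows the direction turned, with no overlap of the groups in either.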
